A study of Homo sapiens with 9 samples.

Results

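Annexins and S100 proteins were followed at the RNA level in MDA-MB-231 cells, a human line of triple-negative breast cancer, after knockdown of the aryl hydrocarbon receptor gene AHR. Genes were chosen by a rule on names, with earlier results of these data known. The rule took every row of the count table named ANXA or S100A followed by a number, together with S100B, S100P, S100G and S100Z. This gave 31 of 60649 genes, 12 annexins and 19 S100 genes. Of these, 20 (10 annexins and 10 S100 genes) had enough reads to be tested.

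The study holds 9 libraries of cells in proliferation, 3 with the control vector pLKO-GFP, 3 with the short hairpin construct shAHR#2 and 3 with shAHR#3. All 3 groups were transduced with lentivirus and selected in puromycin, and the surviving cells were pooled, so each group is a selected pool and not a clone. The labels and the methods number the hairpins differently, so no target sequence is assigned to a construct here. No source used here says whether the 3 replicates of a group came from separate cultures, so p-values measure the spread between these libraries only, which may be technical. Library totals ran from 15991396 to 20374460 reads.

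Annexins are proteins that bind acidic phospholipids in the presence of calcium, and are known for organizing membranes, for membrane repair and for vesicle traffic. S100 proteins are small calcium-binding proteins that usually work as dimers and change the activity of a bound partner, and several are also released and act on cell-surface receptors. The families meet in complexes such as that of annexin A2 with S100A10, and several of their members are known in breast cancer for motility and metastasis, S100A4 above all. The receptor is a transcription factor switched on by ligands, and the comparison asks how these genes stand when its transcript is reduced.

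The targeted gene went with the labels. AHR was between 114 and 121 CPM (counts per 1000000 reads after TMM scaling between libraries) in control libraries, 40.4 to 42.5 under shAHR#2 and 44.5 to 52.1 under shAHR#3. The cell line's markers VIM, CD44, AXL and ZEB1 were all present (at least 2302 reads per library). PGR had 0 reads in every library, and ESR1 at most 4. The E-cadherin gene CDH1 had 14 to 20 reads with pLKO-GFP, 24 to 40 with shAHR#2 and 72 to 94 with shAHR#3, while ERBB2 (974 to 1550 reads) and EPCAM (90 to 135) were not absent. Of 7 markers of other cells, CD3E and KRT1 were at 0 throughout and CDH5 had at most 12 reads, whereas PTPRC, LYZ and PECAM1 rose with each hairpin and KRT10 fell. PTPRC and LYZ had enough reads to be tested only through the knockdown libraries, since 0 and 1 control libraries reached the cutoff. Their rise is bound to that cutoff. The summed leukocyte markers went from 0.508 to 0.760 CPM in control libraries to 3.80 to 4.93 under shAHR#2 and 2.59 to 2.83 under shAHR#3. Endothelial markers were at 2.15 to 2.71, 10.1 to 12.3 and 11.6 to 13.1 CPM in the same order, and keratinocyte markers, which KRT10 makes up, at 28.2 to 32.3, 21.5 to 24.3 and 23.1 to 24.2. All 7 summed to 31.5 to 35.2, 37.8 to 39.4 and 38.6 to 39.5 CPM, and their part in the results was not tested.

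In control cells the families were led by a few very abundant transcripts. Per kilobase of the canonical transcript, S100A6 (calcyclin) was highest at 3396 ± 82.9 CPM per kb (SD, n = 3), the 12th of 14252 tested genes with a length. ANXA2 followed at 969 ± 3.72, S100A10 at 655 ± 16.6 and S100A4 at 588 ± 11.4 CPM per kb. Next came ANXA5 (441 ± 5.57) and ANXA1 (433 ± 2.89), which lay within a few percent of each other, and S100A11 (394 ± 21.7). ANXA3, S100A16, ANXA6, S100A13, ANXA7, S100A2, ANXA11, ANXA4 and S100A3 lay between 113 and 11.6 CPM per kb, S100A5 at 3.12, and ANXA8, ANXA10 and S100P at or under 0.985. The place of ANXA2 depends on the length used, since over all its annotated exons (11574 bases in place of 1554) it stood at 130 CPM per kb, behind ANXA5 (247) and ANXA1 (136). Together the 31 genes took 0.633% to 0.644% of all reads in control libraries, 0.627% to 0.635% with shAHR#2, which overlapped the controls, and 0.646% to 0.655% with shAHR#3, which lay above both.

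**Figure D1:**
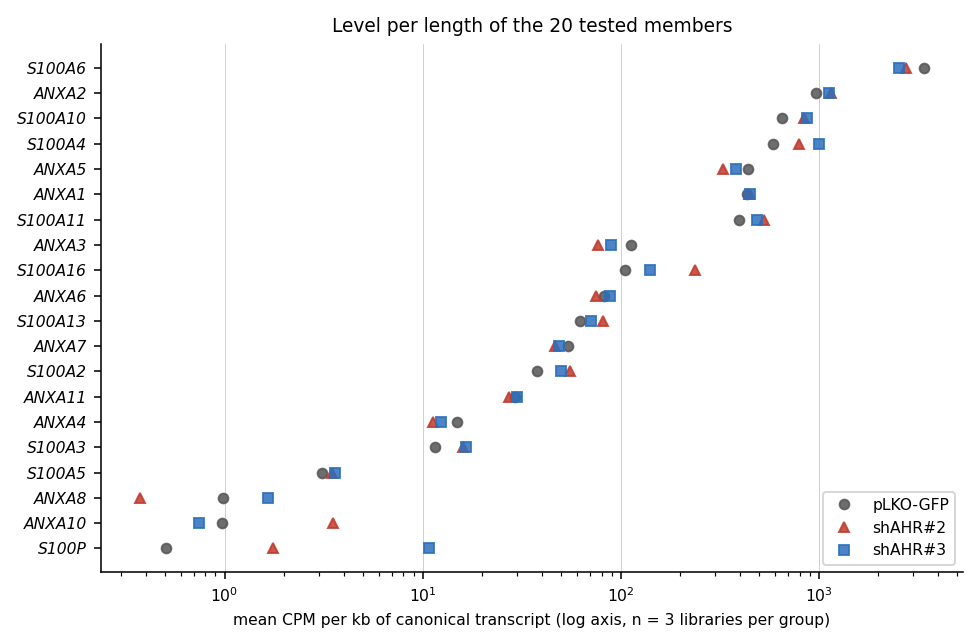
Mean level of the 20 tested members in CPM per kb of canonical transcript (log axis) with pLKO-GFP (grey circles), shAHR#2 (red triangles) and shAHR#3 (blue squares), n = 3 libraries each. S100A6 stands highest at 3396 CPM per kb in control cells, and S100P, ANXA10 and ANXA8 are the low genes whose groups stand farthest apart.

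The remaining 11 genes were not tested. S100A7, S100A8, S100A9, S100A12 and ANXA13 had 0 reads in all 9 libraries, among them S100A8 and S100A9, the calprotectin pair of myeloid cells and inflamed epithelia. ANXA9, S100A1, S100A14, S100B, S100G and S100Z had at most 10 reads in any library. S100Z was counted at 0, 1 and 1 reads with pLKO-GFP, 7, 7 and 6 with shAHR#2 and 1, 2 and 5 with shAHR#3, too few for a test.

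In the tested genes the 2 families leaned apart: S100 genes were mostly higher in the AHR-depleted cells and annexins were mixed or lower, a difference between families that was not tested. With shAHR#2, 8 of the 10 S100 genes rose and 1 fell, whereas 2 of the 10 annexins rose and 7 fell, where 32.6% of all genes rose and 33.2% fell. With shAHR#3, 8 S100 genes rose and 1 fell, and 3 annexins rose and 4 fell, where 26.9% of all genes rose and 27.5% fell. The S100 genes that rose include S100P, which passed the filter on low counts through the knockdown libraries only. The median log2 fold change was 0.43 and 0.40 for the S100 genes and -0.17 and -0.06 for the annexins, where that of all 14274 genes tested was -0.003 and -0.0001. In all, 18 of the 20 members passed with shAHR#2, where 65.8% of all genes did, and 16 passed with shAHR#3, where 54.4% did. Both comparisons use the same control libraries. In bulk RNA, fewer cells that express a gene cannot be told apart from less RNA per cell.

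Most of these differences were modest. A called change of at least 1 on the log2 scale was seen in 4 members with shAHR#2 (11.8% of all genes) and in 1 with shAHR#3 (6.73% of all genes). CPM values of control and knockdown libraries did not overlap in 18 members with shAHR#2, against 68.2% of all genes, and in 17 with shAHR#3, against 58.7%. The constructs themselves differed in 13 of the 20 members, against 42.3% of all genes, with 7 higher under shAHR#3 (21.9% of all genes) and 6 lower (20.4%). Their libraries did not overlap in 14 members, against 49.6% of all genes. A called log2 difference of at least 1 was seen in 3 members (3.71% of all genes).

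**Figure D2:**
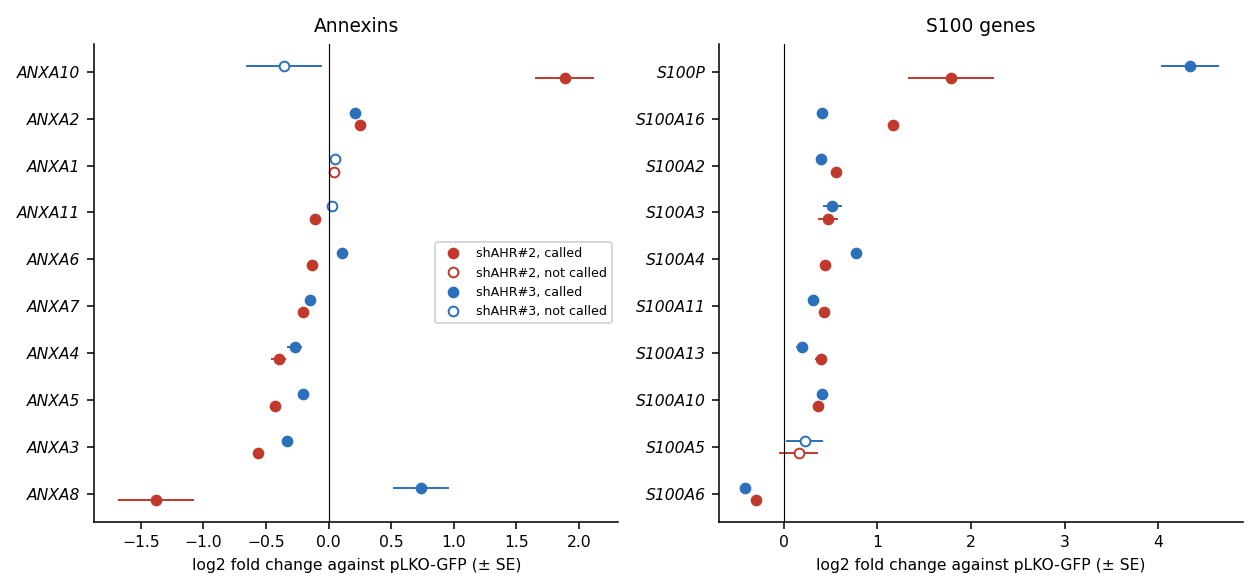
Log2 fold change against pLKO-GFP with its standard error for the 10 tested annexins (left) and the 10 tested S100 genes (right), with shAHR#2 in red and shAHR#3 in blue. Filled points passed an adjusted p of 0.05. All S100 points but those of S100A6 lie right of 0, and ANXA8 and ANXA6 have filled points on opposite sides of 0 for the 2 constructs.

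S100A4 (metastasin), a calcium sensor that binds non-muscle myosin IIA and is known for cell motility, rose more with shAHR#3 than with shAHR#2. It was at 296, 301 and 307 CPM in the pLKO-GFP libraries, 410, 408 and 405 with shAHR#2 and 521, 517 and 510 with shAHR#3. The 3 groups did not overlap and each was far narrower than the steps between them. By edgeR, S100A4 rose by 0.43 on the log2 scale under shAHR#2 (adjusted p = 2.40e-17) and by 0.77 under shAHR#3 (adjusted p = 7.56e-25), each with a standard error of 0.03. Compared directly, shAHR#3 was 0.34 higher (standard error 0.03, adjusted p = 4.72e-14).

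S100A6, a near neighbour of S100A4 in the genome and the most abundant member, moved the other way. Its level was 1432, 1499 and 1490 CPM with pLKO-GFP, 1207, 1173 and 1208 with shAHR#2 and 1106, 1112 and 1098 with shAHR#3. Every knockdown library was under every control library. The log2 fold changes were -0.30 and -0.41 (standard errors 0.03 and 0.02, adjusted p = 2.82e-13 and 7.35e-17), and shAHR#3 was 0.11 lower than shAHR#2 (adjusted p = 2.96e-04). The ratio of S100A6 to S100A4 reads within a library, which does not depend on scaling between libraries, ran from 4.84 to 4.97 in control cells, from 2.88 to 2.98 with shAHR#2 and from 2.13 to 2.15 with shAHR#3.

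Both genes belong to the S100 cluster on the long arm of chromosome 1, where 15 of the 19 S100 genes lie between bases 151982915 and 153632039 of GRCh38. Their start sites are 9815 bases apart on the minus strand. The 250 bases before each start are shown because the neighbours moved in opposite directions in cells depleted of a transcription factor. Capitals mark the core letters bound by AhR and its partner ARNT (GCGTG, searched on both strands) and the TATA box letters (TATAAA, both strands).
S100A6, chr1:153535992-153536241, minus strand: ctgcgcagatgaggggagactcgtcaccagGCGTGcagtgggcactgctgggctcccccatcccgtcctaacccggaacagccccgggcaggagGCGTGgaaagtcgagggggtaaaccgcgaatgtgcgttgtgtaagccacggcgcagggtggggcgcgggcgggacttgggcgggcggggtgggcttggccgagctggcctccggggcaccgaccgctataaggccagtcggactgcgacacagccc
S100A4, chr1:153545807-153546056, minus strand: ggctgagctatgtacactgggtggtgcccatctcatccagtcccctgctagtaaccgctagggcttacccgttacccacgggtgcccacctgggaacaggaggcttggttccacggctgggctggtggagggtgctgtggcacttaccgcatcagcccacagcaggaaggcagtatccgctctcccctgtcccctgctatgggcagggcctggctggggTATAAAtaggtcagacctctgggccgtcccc

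The S100A6 window holds GCGTG at 2 places, and the S100A4 window holds none but has the TATA box letters. These letters are common. Among all 35116 RefSeq promoter windows of 300 bases (GRCh38.p14), 36.5% hold GCGTG on either strand and 11.5% hold TATAAA. Windows were found for 28 of the 31 members (not ANXA8, ANXA13 and S100B), 39 in all, of which 14 hold GCGTG and 14 hold TATAAA. Of the 19 tested members with a window, 10 hold GCGTG in at least 1: S100A2, S100A6, S100A10, S100A11, S100A13, S100A16, ANXA2, ANXA5, ANXA6 and ANXA11, which include genes that rose and genes that fell. The AP-1 letters TGANTCA (N is any base, both strands) were in 5 of the 39 member windows, against 7.71% of all windows. Among the tested members they were in windows of S100A2, S100A3, S100A5 and ANXA2.

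Of the other tested genes of the cluster, all but S100A5 rose with each construct. S100A16 was at 120, 123 and 127 CPM with pLKO-GFP, 271, 285 and 276 with shAHR#2 and 165, 158 and 169 with shAHR#3. It was highest with shAHR#2, and no groups overlapped. The log2 fold changes were 1.17 and 0.41 (standard error 0.03 each, adjusted p = 1.59e-27 and 3.56e-13), and shAHR#3 was 0.75 lower than shAHR#2 (log2 fold change -0.75, standard error 0.03, adjusted p = 2.90e-21). S100A2, first described as lost in breast tumor cells, rose by 0.56 and 0.40 (adjusted p = 3.08e-12 and 1.51e-08). S100A3 rose by 0.47 and 0.52 (adjusted p = 1.84e-04 and 4.97e-05). S100A11, a partner of annexin A1, was at 230, 227 and 208 CPM with pLKO-GFP, 299, 304 and 292 with shAHR#2 and 270, 275 and 278 with shAHR#3. Every knockdown library lay above the controls, and the gene rose by 0.43 and 0.31 (adjusted p = 9.67e-15 and 1.12e-10).

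S100A13, which takes part in the release of proteins without a signal peptide, rose by 0.39 and 0.19 (adjusted p = 1.01e-06 and 0.00917), the second no longer past the threshold without pLKO-GFP replicate 3 (0.16, adjusted p = 0.0632). Its exons overlap those of S100A1 on the other strand and of another gene on its own strand. Reads in the first overlap are uncertain where strand was not used in counting, and reads in the second in either case. S100A5 (39 to 57 reads per library) had log2 fold changes of 0.16 and 0.22, not past the threshold (standard error 0.20 each, adjusted p = 0.519 and 0.354). Thus, under each construct, 7 of the 9 tested S100 genes of the cluster were called higher and 1 was called lower. Of all tested genes, 32.6% rose under shAHR#2 and 26.9% under shAHR#3, while 33.2% and 27.5% fell. The medians of the 9 cluster genes were 0.43 and 0.40, against -0.03 and -0.02 for the 1438 tested genes of chromosome 1.

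In the surroundings of the cluster more genes were called higher than lower. Of 48 other tested genes within 1000000 bases on either side, 23 were higher and 9 lower with shAHR#2 (median 0.14), and 24 were higher and 4 lower with shAHR#3 (median 0.14). The shares called in either direction, 66.7% and 58.3%, were near the 65.8% and 54.4% of all genes, of which 32.6% and 26.9% were higher. Inside the span 4 other genes were tested. Among these FLG, the filaggrin gene, fell by 1.21 with shAHR#2 (adjusted p = 2.03e-16) and rose by 0.57 with shAHR#3 (adjusted p = 9.39e-10).

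**Figure D3:**
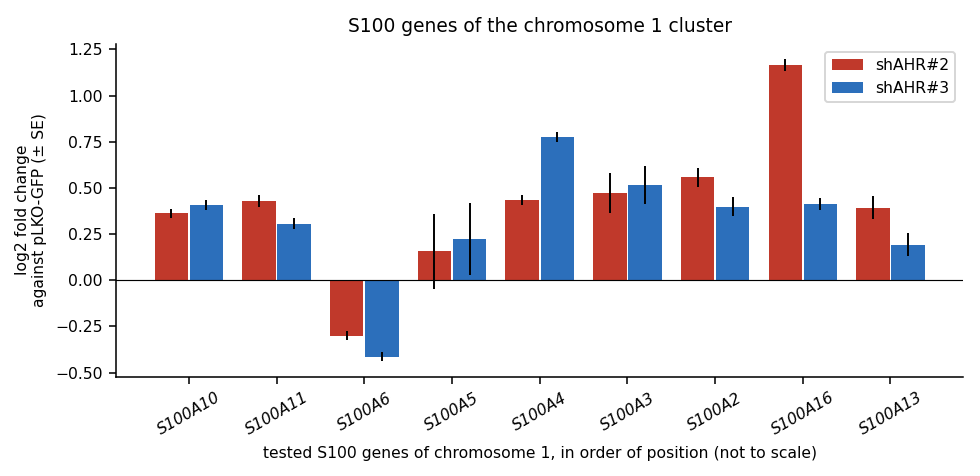
Log2 fold change against pLKO-GFP (bars, with standard error) of the 9 tested S100 genes of chromosome 1 in their order along the chromosome, not to scale, with shAHR#2 in red and shAHR#3 in blue. S100A6 is the one gene with bars under 0, at -0.30 and -0.41, between neighbours with bars over 0.

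S100A10 and ANXA2, which form the complex that draws plasminogen to the cell surface, rose together. S100A10 was at 445, 427 and 447 CPM with pLKO-GFP, 583, 557 and 553 with shAHR#2 and 576, 590 and 582 with shAHR#3. ANXA2 was at 1512, 1506 and 1500 CPM with pLKO-GFP, 1800, 1800 and 1791 with shAHR#2 and 1735, 1776 and 1733 with shAHR#3. In both genes every knockdown library was over every control library. S100A10 rose by 0.36 and 0.41 on the log2 scale (standard error 0.03 each, adjusted p = 9.75e-15 and 6.41e-16). ANXA2 rose by 0.25 and 0.21 (standard error 0.02 each, adjusted p = 6.09e-12 and 7.50e-10).

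The constructs were not told apart by the test in either gene. The differences were 0.05 for S100A10 (standard error 0.03, adjusted p = 0.171) and -0.04 for ANXA2 (standard error 0.02, adjusted p = 0.179). Every ANXA2 value with shAHR#3 was nonetheless under every value with shAHR#2, whereas the S100A10 values overlapped. ANXA2 reads outnumbered S100A10 reads by 3.35 to 3.53 times in control libraries, 3.09 to 3.24 times with shAHR#2 and 2.98 to 3.01 times with shAHR#3. ANXA2 has processed pseudogenes, of which ANXA2P2 took 45 to 68 reads per library and ANXA2P1 and ANXA2P3 at most 2. Adding them to ANXA2 left its log2 fold changes at 0.25 and 0.21.

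ANXA1 and ANXA5 are the other abundant annexins. ANXA1, a mediator of the resolution of inflammation, was at 605, 603 and 611 CPM with pLKO-GFP, 628, 617 and 626 with shAHR#2 and 627, 637 and 617 with shAHR#3. The knockdown libraries all lay above the controls, but by so little that neither comparison passed (log2 fold changes 0.04 and 0.05, standard error 0.02 each, adjusted p = 0.140 and 0.0840). The second passed without shAHR#3 replicate 3 (0.06, adjusted p = 0.0359) and when genes averaging under 50 counts were left out (0.06, adjusted p = 0.0441).

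ANXA5, known for binding phosphatidylserine on dying cells, fell. It was at 725, 731 and 713 CPM with pLKO-GFP, 538, 542 and 534 with shAHR#2 and 618, 647 and 617 with shAHR#3, in 3 groups without overlap. The log2 fold changes were -0.43 and -0.20 (standard error 0.03 each, adjusted p = 2.47e-17 and 8.98e-09), and the level was 0.22 higher with shAHR#3 than with shAHR#2 (adjusted p = 3.36e-09). ANXA3 fell likewise by 0.56 and 0.34 (adjusted p = 7.94e-17 and 8.14e-11), ANXA4 by 0.40 and 0.27 (adjusted p = 4.56e-07 and 1.65e-04) and ANXA7 by 0.20 and 0.15 (adjusted p = 5.56e-06 and 3.84e-04). ANXA11, which tethers RNA granules to lysosomes, fell by 0.11 with shAHR#2 (adjusted p = 0.00527), although its groups overlapped and the call was lost without pLKO-GFP replicate 1 (-0.07, adjusted p = 0.0844). With shAHR#3 it had a log2 fold change of 0.03 (adjusted p = 0.511).

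ANXA6, an unusual annexin with a doubled core that is known from cholesterol and receptor traffic, moved in opposite directions with the constructs, by small amounts. It was at 236, 241 and 233 CPM with pLKO-GFP, 218, 215 and 215 with shAHR#2 and 259, 251 and 257 with shAHR#3. Every shAHR#2 library was under, and every shAHR#3 library over, the control libraries. The log2 fold changes were -0.13 and 0.11 (standard error 0.03 each, adjusted p = 1.02e-04 and 8.30e-04), and the constructs differed by 0.24 (standard error 0.03, adjusted p = 3.72e-09).

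**Figure D4:**
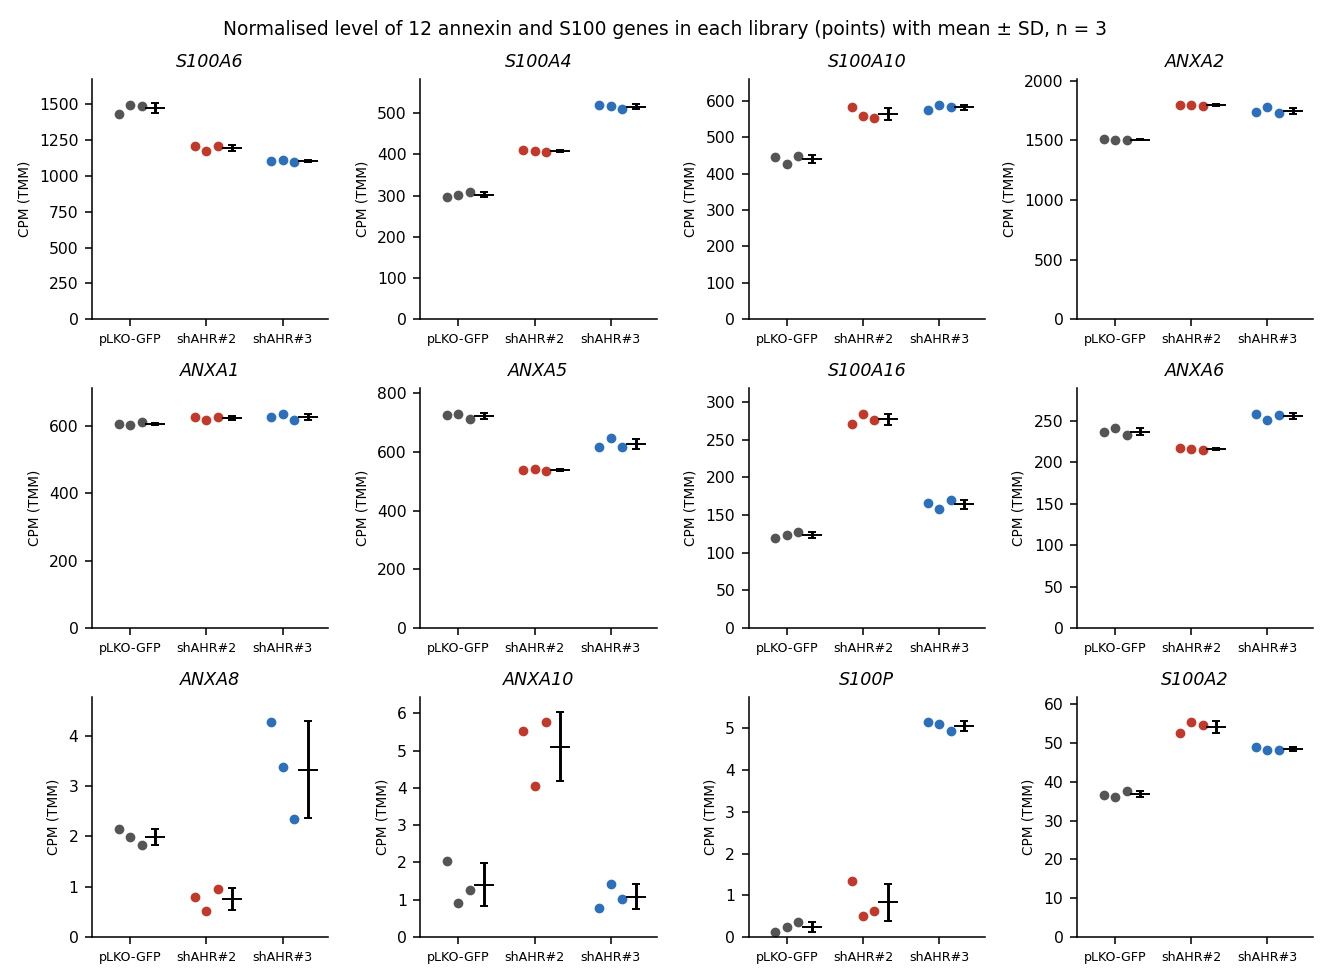
CPM of 12 annexin and S100 genes in each of the 9 libraries (points, each axis from 0), with the mean and SD of each group of 3 (black). S100A6 and ANXA5 are lower in all knockdown libraries, S100A4, S100A10, ANXA2 and S100A2 higher, and S100P is highest in the shAHR#3 libraries, at 4.93 to 5.14 CPM.

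S100P, a calcium-binding protein first found in placenta that binds ezrin and the receptor RAGE, had the largest change with shAHR#3. It was counted at 2, 5 and 7 reads with pLKO-GFP, 25, 8 and 10 with shAHR#2 and 100, 100 and 101 with shAHR#3. Thus it was scarce in control cells and reached 5.14, 5.12 and 4.93 CPM with shAHR#3, with shAHR#2 in between and no overlap of the groups. It passed the filter on low counts through the knockdown libraries only, so that among genes tested it had to be one that is higher there. These were 2 libraries with shAHR#2 and 3 with shAHR#3, so the comparison of the constructs is bound to the filter as well. The log2 fold changes were 1.79 (standard error 0.46, adjusted p = 8.05e-04) and 4.34 (standard error 0.31, adjusted p = 1.53e-14), and shAHR#3 was 2.56 higher than shAHR#2 (standard error 0.25, adjusted p = 9.90e-11). Without shAHR#2 replicate 1, the first was 1.22 (adjusted p = 0.0424).

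ANXA10, an annexin of stomach and urothelium, was scarce as well and changed with the other construct. It was counted at 36, 18 and 25 reads with pLKO-GFP, 103, 63 and 91 with shAHR#2 and 15, 28 and 21 with shAHR#3. In CPM the shAHR#2 libraries stood at 5.52, 4.05 and 5.76 against 2.03, 0.899 and 1.27 in control cells and 0.772, 1.43 and 1.02 with shAHR#3, where the last 2 groups overlapped. The log2 fold change was 1.89 with shAHR#2 (standard error 0.24, adjusted p = 7.69e-09) and -0.36 with shAHR#3 (standard error 0.30, adjusted p = 0.333, not past the threshold). The direct difference between constructs was -2.24 (standard error 0.25, adjusted p = 1.04e-09).

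S100P and ANXA10 lie at opposite ends of chromosome 4, and the 250 bases before their starts are shown as those of the 2 scarce members with the largest differences between the constructs. Capitals mark the same letters as above.
S100P, chr4:6693628-6693877, plus strand: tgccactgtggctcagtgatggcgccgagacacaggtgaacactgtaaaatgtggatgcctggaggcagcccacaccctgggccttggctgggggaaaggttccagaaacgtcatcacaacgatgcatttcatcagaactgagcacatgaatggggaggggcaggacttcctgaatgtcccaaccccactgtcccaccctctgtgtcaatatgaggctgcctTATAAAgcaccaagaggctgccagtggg
ANXA10, chr4:168092287-168092536, plus strand: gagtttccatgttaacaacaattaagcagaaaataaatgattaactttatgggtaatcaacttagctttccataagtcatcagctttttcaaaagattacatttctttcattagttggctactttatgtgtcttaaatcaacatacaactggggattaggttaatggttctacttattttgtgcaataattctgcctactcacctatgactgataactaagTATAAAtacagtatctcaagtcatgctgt

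Both windows hold the TATA box letters close to the start, and neither holds GCGTG.

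ANXA8 differed between the constructs in the reverse sense to ANXA10. It was counted at 38, 40 and 36 reads with pLKO-GFP, 15, 8 and 15 with shAHR#2 and 83, 66 and 48 with shAHR#3, groups that did not overlap in CPM. The log2 fold changes were -1.38 (standard error 0.30, adjusted p = 1.45e-04) and 0.74 (standard error 0.22, adjusted p = 0.00494), and the difference between constructs was 2.12 (standard error 0.28, adjusted p = 5.22e-08). The rise with shAHR#3 was 0.53 without shAHR#3 replicate 1 and no longer passed (adjusted p = 0.0766).

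ANXA8L1 is a near-identical copy of ANXA8, so the counting may have split their reads or dropped them. ANXA8L1 itself had 26, 14 and 19 reads with pLKO-GFP, 4, 11 and 8 with shAHR#2 and 23, 29 and 37 with shAHR#3. With both rows summed the log2 fold changes were -1.30 and 0.67 (adjusted p = 6.47e-06 and 0.00113).

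Several annexins lie on chromosomes whose genes were lower as a whole. Chromosome 4, with ANXA3, ANXA5 and ANXA10, had a median log2 fold change of -0.30 with shAHR#2 and -0.23 with shAHR#3 over 535 tested genes. Chromosome 10, with ANXA7, ANXA8 and ANXA11, had medians of -0.32 and -0.15 over 573 genes, and chromosome 5, with ANXA6, of -0.48 and -0.26 over 656 genes. Beside these medians ANXA5 was 0.12 lower with shAHR#2 (difference -0.12) and 0.02 higher with shAHR#3, and ANXA7 was 0.12 higher and 0.003 higher. ANXA6 was 0.35 and 0.37 above the median of its chromosome. ANXA3 lay at -0.26 and -0.11 from its chromosome's median, and ANXA4, on chromosome 2, at -0.32 and -0.17. ANXA1 (chromosome 9) and ANXA2 (chromosome 15) lie where the medians were between 0.005 and 0.04. The part of the chromosome-wide shift in the annexin values was not tested.

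**Figure D5:**
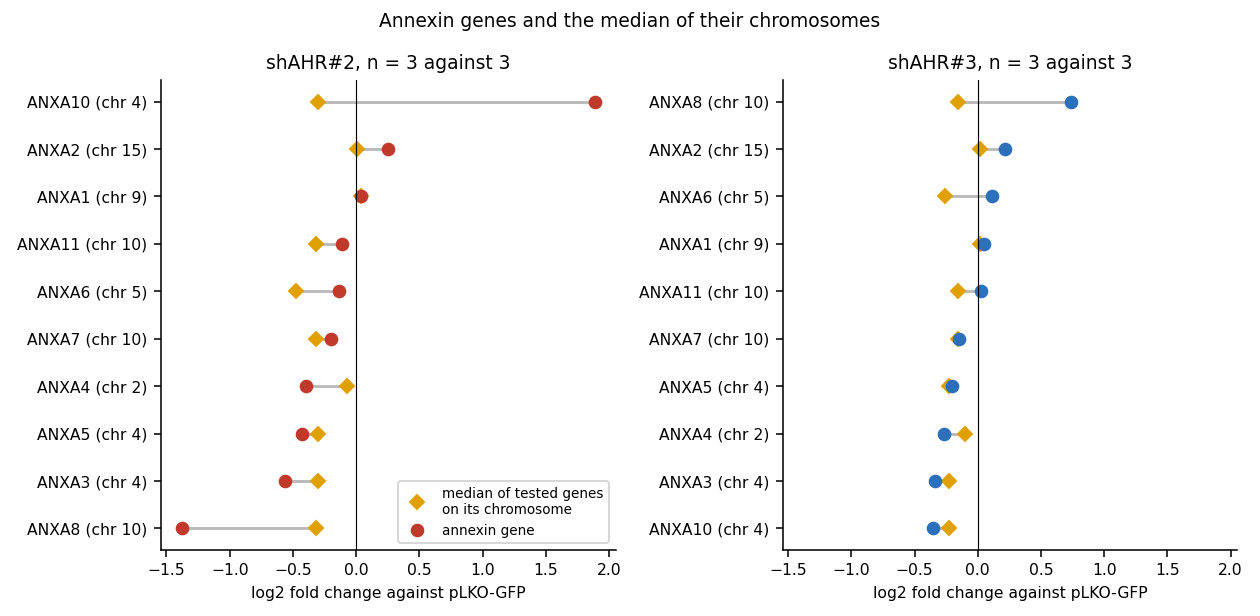
Log2 fold change against pLKO-GFP of the 10 tested annexins (circles) and the median over all tested genes of the same chromosome (diamonds), with shAHR#2 on the left and shAHR#3 on the right. For ANXA1, ANXA5 and ANXA7 the 2 points lie close together, whereas ANXA10 with shAHR#2 and ANXA8 with both constructs stand far from their chromosomes' medians.

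Receptors and binding partners of the families were taken from a list of 26 genes, of which 24 were tested. With shAHR#2, 12 were higher and 8 lower (median log2 fold change 0.10). With shAHR#3, 9 were higher and 8 lower (median 0.07). Those shares called, 83.3% and 70.8%, stand beside 65.8% and 54.4% of all genes. The list was written with earlier results of these data known. Its shares, and the counts by role below, can therefore reflect that choice and are description only.

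Receptors were higher or not called. With shAHR#2, 5 of 6 rose and none fell, where 32.6% of all genes rose, and with shAHR#3 3 of 6 rose and none fell, where 26.9% rose. The 5 include FPR2, which had at most 19 reads and whose groups overlapped. FPR2 reached the low-count cutoff in 1 pLKO-GFP library, 2 with shAHR#2 and 0 with shAHR#3. It was thus tested only with the help of shAHR#2 libraries, and its call there is bound to the cutoff. Both counts include FPR3, which passed the filter on low counts through the knockdown libraries only and so had to be higher there. BSG, the most abundant of the 6, had means of 503 CPM with pLKO-GFP, 912 with shAHR#2 and 895 with shAHR#3 (log2 fold changes 0.86 and 0.83). TLR4, the innate receptor that S100A8 and S100A9 can engage, was at 41.4, 44.8 and 44.4 CPM with pLKO-GFP, 128, 130 and 132 with shAHR#2 and 89.7, 98.2 and 88.3 with shAHR#3. It was higher in every knockdown library, with log2 fold changes of 1.57 (shAHR#2) and 1.08 (shAHR#3, adjusted p = 1.37e-27 and 9.84e-22). FPR3, a relative of the annexin A1 receptor, was counted at 5, 5 and 0 reads with pLKO-GFP and at 110 to 149 in the knockdown libraries (log2 fold changes 5.30 and 5.27, adjusted p = 2.13e-18 and 4.78e-18). AGER, which encodes RAGE, had only 8 to 25 reads per library and stood 0.91 above control on the log2 scale under shAHR#2 (adjusted p = 0.0194) and 0.71 above it under shAHR#3, not past the threshold (adjusted p = 0.0789), values which were not told apart (difference -0.21, adjusted p = 0.637).

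The plasminogen system, which the annexin A2 and S100A10 complex serves, rose in its 3 tested genes with each construct, where 32.6% and 26.9% of all genes rose. PLAT, tissue plasminogen activator, was at 90.0, 84.3 and 86.5 CPM with pLKO-GFP, 408, 423 and 401 with shAHR#2 and 169, 173 and 177 with shAHR#3. These groups lie far apart, and PLAT rose by 2.24 and 0.99 (adjusted p = 1.53e-36 and 1.86e-24). The urokinase receptor gene PLAUR rose by 1.33 and 0.67 and PLAU, urokinase, by 0.57 and 0.18 (adjusted p at most 3.70e-07). PLG, plasminogen itself, had 0 reads.

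Membrane repair genes differed in direction. DYSF (dysferlin, a calcium sensor of membrane repair) was at 35.9, 36.0 and 35.5 CPM with pLKO-GFP, 5.79, 5.65 and 7.09 with shAHR#2 whereas the shAHR#3 libraries lay at 10.5 to 13.5. This was the largest fall of the list, by 2.54 (log2) under shAHR#2 and 1.54 under shAHR#3 (adjusted p = 1.69e-23 and 1.92e-18). Of the 6 tested genes of this role, 1 rose, 3 fell and 2 were not called with shAHR#2, where 33.2% of all genes fell. With shAHR#3, 1 rose and 5 fell, where 27.5% of all genes fell, the rise in each being that of AHNAK (0.30 and 0.28), the scaffold bound by the annexin A2 complex. The falls other than that of DYSF were smaller. MYOF had log2 fold changes of -0.24 and -0.09, and PDCD6, with only 28 to 84 reads per library, of -0.85 and -0.64. SRI (-0.22) and PDCD6IP (-0.08) were called lower with shAHR#3 only.

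Among the 9 direct partners, 3 rose and 5 fell with shAHR#2, and 2 rose and 3 fell with shAHR#3, shares to be read beside the 32.6% and 26.9% of all genes that rose and the 33.2% and 27.5% that fell. MYH9, the myosin that S100A4 binds, rose by 0.14 and 0.09 (adjusted p = 7.22e-06 and 0.00337), whereas MYH10, the related myosin IIB, was at 97.3, 96.8 and 93.0 CPM with pLKO-GFP and between 45.0 and 50.2 in the knockdown libraries and fell by 1.04 and 0.99 (adjusted p = 1.03e-21 and 5.27e-21). S100PBP, which binds S100P, fell by 1.03 and 0.48 (adjusted p = 3.91e-14 and 6.12e-07), and CACYBP, named for binding S100A6, by 0.28 and 0.26 (adjusted p = 6.14e-10 and 5.78e-09).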

How the data were processed

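Raw counts of reads per gene were deposited by the authors, from stranded mRNA libraries read from 1 end. The submitters' processing notes name FastQC, STAR, featureCounts and Subread, with the build GRCh38.p13. Versions, annotation release and strand setting are not given in the sources used here, so overlapping genes and near-identical copies are uncertain.

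Genes were kept by filterByExpr (minimum count 10, minimum total 15) and libraries scaled by TMM. A single quasi-likelihood model (edgeR 4.0.16, R 4.3.3) covered all 9 libraries, with Benjamini-Hochberg adjustment over 14274 genes and a threshold of 0.05. A standard error is the absolute log2 fold change over the square root of F. Levels per length used canonical transcripts of GENCODE release 44, and promoter windows (250 bases before to 50 after a start) came from RefSeq. Replicate libraries were not duplicates of each other (chi-square over degrees of freedom 1.74 to 3.97). The code was tested on simulated data.

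The members and the partner list were chosen with earlier results of these data known. Values per library are given for members called with an absolute log2 fold change of at least 1 or in opposite directions by the constructs, for ANXA10 and S100A4, and for the 3 most abundant annexins and S100 genes per length. Up to 3 partners called higher and 3 called lower with both constructs were taken by mean log2 fold change. Other partners, FLG, S100A11 values and ANXA8L1 were chosen after their values were seen. Alternatives were DESeq2 1.42.0, its size factors, other filters and thresholds, fits of 2 groups, a block on replicate number, omission of each library in turn, and copies summed.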

Additional observations from a re-analysis of the deposited data

Results flagged for a closer look

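The hairpins' effects on 4 members differed from each other by the direct test of shAHR#3 against shAHR#2, and either went in opposite called directions against pLKO-GFP or lay at least 1 apart on the log2 scale. S100P was 2.56 higher with shAHR#3 (edgeR's quasi-likelihood test, adjusted p = 9.90e-11), ANXA8 was 2.12 higher (adjusted p = 5.22e-08) and ANXA6 was 0.24 higher (adjusted p = 3.72e-09). ANXA10 had a log2 difference of -2.24 (adjusted p = 1.04e-09). In each of these genes all 3 libraries of one construct lay on the same side of all 3 of the other. S100P was tested only because of the knockdown libraries, above all those of shAHR#3, where it is highest. Its p-value between the constructs carries that limit.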

How the results depend on the processing

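Of 1415 values recomputed under the alternatives, 1389 kept their direction and their side of the threshold, or stayed close to the reported value. Many of these could hardly change, such as those that left out a library of the group not compared. Settings in which a gene was not tested are not counted for that gene, so the total is no measure of robustness. Requiring an absolute log2 fold change of at least 1 reduced the members called to 4 with shAHR#2, 1 with shAHR#3 and 3 between constructs. The partners called were reduced to 8, 3 and 2 of the 24 tested. At that setting 11.8%, 6.73% and 3.71% of all genes were called, in the same order. The median log2 fold change of the members with shAHR#2 was 0.146 with no filter on low counts, 0.15 with a mean of at least 50 counts and 0.161 with only the groups compared, and with shAHR#3 it was 0.156 with a mean of at least 50 counts; other members are then tested. Leaving out 1 library moved these medians between 0.15 and 0.23 with shAHR#2, 0.15 and 0.22 with shAHR#3 and 0.0297 and 0.086 between the constructs. The AHR difference between constructs ran from 0.13 to 0.24, and without shAHR#3 replicate 2 it did not pass (0.13, adjusted p = 0.0626). Signs turned only in differences that were not called, on leaving out 1 library: between the constructs ANXA1 (-0.0031 to 0.0198), S100A3 (-0.0153 to 0.0991, with -0.0037 without shAHR#2 replicate 2) and FPR3 (-0.103 to 0.0103), and with shAHR#3 ANXA11 (-0.0116 to 0.0652). The cause was not tested. Between the constructs, S100A13 lost its call without shAHR#2 replicate 3 (-0.15, adjusted p = 0.07) and ANXA4 gained one without shAHR#3 replicate 2 (0.17, adjusted p = 0.0466). With the replicate number as a block, 18, 16 and 13 members were called. Same-numbered libraries correlated by 0.003 to 0.058 in their deviations from the group means, too little to pair them, although each of the 9 correlated best with its own number. S100P was not tested where only pLKO-GFP and shAHR#2 were fitted, and S100P, S100A5, ANXA8 and ANXA10 were not tested with a mean of at least 50 counts.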
